A study of Rattus norvegicus with 2 samples.

Results

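The prolactin and growth hormone receptor signalling genes described here are the receptors *Prlr* and *Ghr*, the kinase *Jak2*, the transcription factors *Stat5a* and *Stat5b*, and the feedback inhibitors *Cish* and *Socs2*. They were chosen by gene name, and all 7 were listed, with 11 of the 26324 mRNA transcripts and 7 of the 22777 genes of the tables. Hypothalamic RNA came from female Sprague Dawley rats of 2 stages, prepubertal (postnatal day 25) and pubertal (postnatal day 35, at the first estrus by vaginal smear). The methods give 3 rats per stage, all decapitated under pentobarbital sodium anaesthesia, but the deposited tables give a single value per stage and transcript, and the step from rats to that value is not given in the sources used here. Each stage was therefore treated as 1 sample, nothing can be set against the spread between rats, and no test was run.

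Values are FPKM, the sequenced fragments per kilobase of transcript at a common library size, summed over the transcripts of a gene. Low FPKM values of genes with 1 transcript fell on whole multiples of a fixed step, so the number of fragments behind a value could be recovered. For a transcript of 2000 nt, 1 fragment was worth 0.0276 FPKM before puberty and 0.0353 FPKM at puberty, which corresponds to libraries of 20800000 and 16200000 fragments. Differences are log2 of (pubertal FPKM + 1) over (prepubertal FPKM + 1), so a positive value stands for a higher level at puberty. Intervals are exact 95% intervals from the fragment numbers (Poisson for a level, Clopper-Pearson for a fold between the libraries). They cover counting error only and say nothing of the spread between rats.

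Prolactin and growth hormone are pituitary hormones that act through related receptors without enzyme activity of their own. Hormone binding activates the kinase JAK2, which phosphorylates STAT5, and STAT5 dimers then enter the nucleus and bind short palindromic DNA elements. Among the genes they switch on are *Cish* and *Socs2*, whose products dampen the same receptors. In the hypothalamus, prolactin is known for its feedback on the dopamine neurons that restrain its release, and growth hormone for its feedback on the neurons that make its releasing and inhibiting peptides.

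The binding element of STAT5 dimers has the core TTCNNNGAA, which reads the same on both strands, and the promoters are shown because the feedback genes of this pathway are classical targets through it. RefSeq promoter windows of build GRCr8, each with 250 bases before and 50 bases after a start site, were matched by symbol for 6 of the 7 genes, in 7 windows. No window was found for *Socs2*. The element was found in 2 of these 6 genes, beside 2577 (9.39%) of the 27457 genes with a window. The 250 bases before the *Cish* start (chr8:116850719-116850968, plus strand) hold 4 copies, in capitals, whose first bases lie 241, 230, 136 and 119 bases before the start.
Cish: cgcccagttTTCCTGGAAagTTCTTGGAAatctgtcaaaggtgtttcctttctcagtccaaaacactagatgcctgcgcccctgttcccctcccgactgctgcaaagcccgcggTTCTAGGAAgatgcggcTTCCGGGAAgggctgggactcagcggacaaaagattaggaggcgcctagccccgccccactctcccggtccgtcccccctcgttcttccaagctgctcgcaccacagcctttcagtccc
Of the 33469 promoter windows in the table, 2970 (8.87%) hold at least 1 copy and 2 hold 4 copies, the highest number in any window. *Prlr* has 2 windows. The one farther along the gene (chr2:60909409-60909658, plus strand) holds 1 copy, in capitals, whose first base lies 176 bases before that start, and the other window holds none.
Prlr: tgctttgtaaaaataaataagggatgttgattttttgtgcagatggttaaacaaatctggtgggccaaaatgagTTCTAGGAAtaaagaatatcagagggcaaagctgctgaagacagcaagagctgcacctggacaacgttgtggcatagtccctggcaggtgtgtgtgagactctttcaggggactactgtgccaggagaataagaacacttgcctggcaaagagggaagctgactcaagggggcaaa
The core was not found in the windows of *Ghr*, *Jak2*, *Stat5a* and *Stat5b*. Their base composition differed, with 40% G and C for *Ghr*, 69.0% for *Stat5a*, 80.3% for *Jak2* and 82.7% for *Stat5b*, against a median of 51.7% over all windows (quartiles 44.7% and 60.3%). The *Stat5a* and *Stat5b* starts lie 9907 bases apart on chromosome 10 and point away from each other. A match of letters is a description of the window and does not show binding, and a window without the core says nothing about STAT5 at that gene.

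The levels of the 7 genes spanned a wide range and kept one order in both stages. *Stat5b* was highest, followed by *Jak2*, *Ghr*, *Socs2*, *Stat5a*, *Prlr* and *Cish*. The kinase and 1 STAT5 gene were thus listed far above both receptors, with *Jak2* at 3.47 times the FPKM of *Ghr* and 10.7 times that of *Prlr* before puberty, and at 4.38 and 10.4 times at puberty. *Stat5b* exceeded 79.1% of all genes in the prepubertal library and *Cish* 38.1%. The counting intervals of *Stat5a* and *Prlr* overlapped in both stages, and those of *Ghr* and *Socs2* overlapped at puberty, so the order within these pairs is not separated there.

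**Figure D1:**
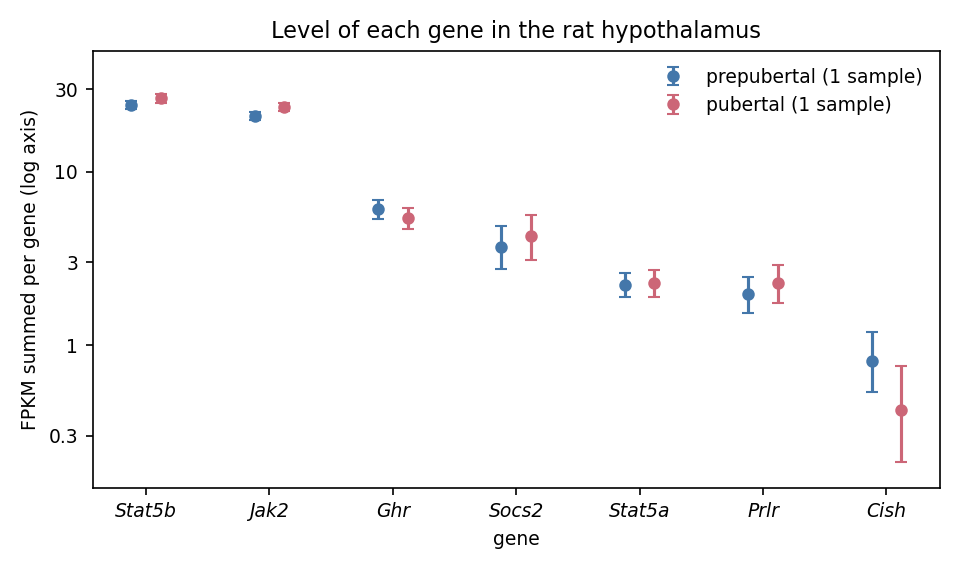
FPKM summed per gene (log axis) for the 7 genes in the prepubertal and the pubertal sample. Points are the single value of each stage and bars exact 95% Poisson intervals, which cover counting error only. The order from *Stat5b* (24.3 and 26.6 FPKM) down to *Cish* (0.814 and 0.423 FPKM) was the same in both stages.

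Differences between the stages were small against this range. Of the 7 genes, 5 were listed higher and 2 lower at puberty (4 and 3 after scaling to reference genes, 6 and 1 with equal *Actb*), where 38.9% of all genes were higher and 40.4% lower, and 48.9% of the 14029 genes of at least 1 FPKM in 1 stage were higher. Their median log2 ratio was 0.13, beside 0.00 over all genes and -0.01 over the genes of at least 1 FPKM. None of the 7 genes (0) changed at least 2-fold in FPKM + 1, as 0.681% of all genes and 1.1% of those of at least 1 FPKM did. The ratios ran from -0.35 for *Cish* to 0.16 for *Jak2*, and the quartiles over the genes of at least 1 FPKM were -0.17 and 0.14.

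*Prlr* (ENSRNOG00000017727), the prolactin receptor, was listed at 1.96 FPKM (counting interval 1.53 to 2.49) in the prepubertal library and at 2.27 FPKM (1.75 to 2.89) in the pubertal library. These values rest on 69 and 66 fragments, and the log2 ratio was 0.14 (counting interval -0.20 to 0.48). The intervals overlapped, so a difference was not detectable at this depth. Rat *Prlr* is known to be spliced into forms with a long or a short cytoplasmic tail, and 4 transcripts are listed, without a statement of the form each encodes. The 2128 nt transcript held most of the FPKM, 1.29 before and 1.31 at puberty, or 65.7% and 57.6% of the gene. The 1936 nt transcript went from 0.400 to 0.962 FPKM, from 20.4% to 42.4% of the gene. The 1129 nt transcript was listed at 0.275 FPKM, about 5 fragments, before puberty and at 0 at puberty, and the 1239 nt transcript at 0 in both. Cuffdiff divides fragments shared by transcripts by estimate, and the numbers assigned to the 2128 nt transcript in both stages and to the 1936 nt transcript at puberty were not whole within 0.1, so the shift between transcripts carries an error that these intervals do not cover.

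The choroid plexus, the tissue of the brain ventricles that makes cerebrospinal fluid, is known for its high level of *Prlr*. All 8 of its listed markers were above 0 in both libraries, 4 higher and 4 lower at puberty (7 and 1 with equal *Actb*), with a summed 40.7 FPKM before and 35.7 FPKM at puberty. The lower sum rests on *Ttr*, its most abundant transcript, which went from 29.0 to 23.0 FPKM, while the other 7 markers summed to 11.6 and 12.7 FPKM. The water channel gene *Aqp1*, with the largest ratio of the list, went the other way, from 1.22 to 2.21 FPKM (0.53). The part of choroid plexus in the *Prlr* level was not tested, and in bulk tissue fewer cells of a type and less RNA per cell cannot be told apart.

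*Ghr* (ENSRNOG00000015654), the growth hormone receptor, was listed at 6.08 FPKM (5.34 to 6.89) before puberty and 5.40 FPKM (4.66 to 6.23) at puberty. This was 3.09 and 2.38 times the FPKM of *Prlr*. Its log2 ratio was -0.14 (counting interval -0.38 to 0.09), so the receptors differed in sign but neither beyond counting error. Rodent *Ghr* is known to give both the full receptor and a shorter binding protein by splicing, and 2 transcripts are listed, again without a statement of what each encodes. The 2941 nt transcript went from 3.67 to 3.97 FPKM and the 1023 nt transcript from 2.41 to 1.43 FPKM. The long transcript thus held 60.4% of the FPKM before and 73.5% at puberty. The gene rests on 243 and 191 fragments in all, which at the depth of the libraries is a fold of 1.01 (0.828 to 1.22), against 0.889 from the summed FPKM. The sign of the *Ghr* ratio therefore depends on how the fragments were divided between a short and a long transcript. Growth hormone receptor is also made by connective tissue, and all 7 fibroblast and meningeal markers were lower at puberty (4 of 7 with equal *Actb*), with a sum of 92.6 FPKM before and 64.2 FPKM at puberty. The highest of them, *Pdgfra*, at 32.8 and 27.6 FPKM, is not particular to connective tissue in the brain, so the sums are not of that tissue alone. The part of connective tissue in the *Ghr* value was not tested.

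**Figure D2:**
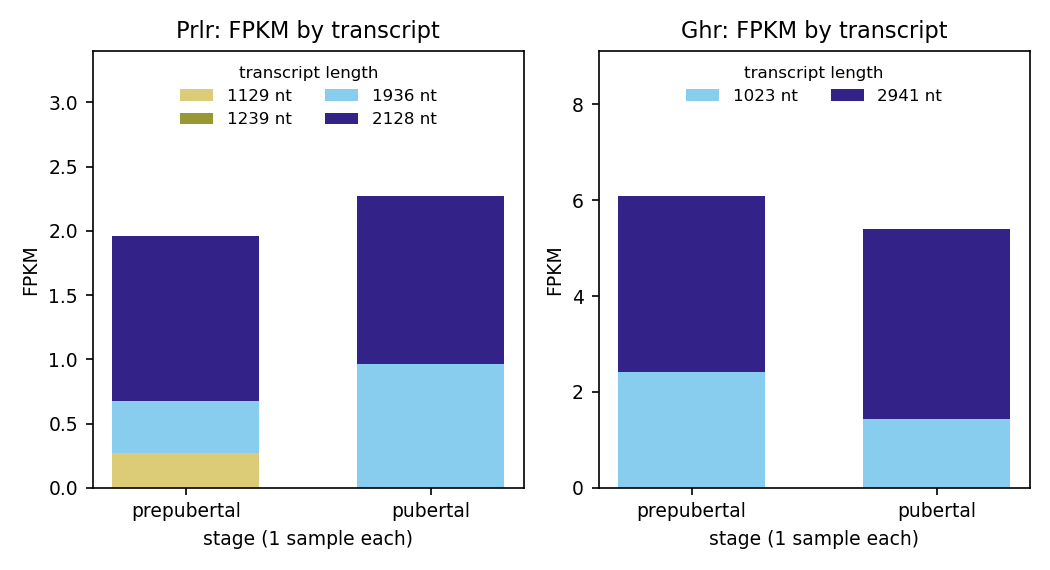
FPKM of each listed transcript of *Prlr* and of *Ghr*, stacked to the level of the gene, in the prepubertal and pubertal sample. Colours stand for transcripts, named by length. The 1936 nt transcript of *Prlr* made up 20.4% of the bar before and 42.4% at puberty, and the 2941 nt transcript of *Ghr* 60.4% and 73.5%.

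*Jak2* (ENSRNOG00000015547), the kinase bound to both receptors and to several other cytokine receptors, went from 21.1 FPKM (20.0 to 22.2) to 23.7 FPKM (22.4 to 24.99). It is listed with 1 transcript of 3731 nt and rests on about 1521 and 1336 fragments. The log2 ratio was 0.16 (counting interval 0.06 to 0.26), or a fold of 1.12 (1.04 to 1.21) in fragments per depth. This interval lies above 1, but it holds no spread between rats, and with the libraries scaled to reference genes the fold was 1.06 (0.981 to 1.14).

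*Stat5b* (ENSRNOG00000019075), the STAT5 gene best known for growth hormone action, went from 24.3 to 26.6 FPKM, on about 1169 fragments (counting interval 1103 to 1238) and 1003 fragments (942 to 1067). Its log2 ratio was 0.13 (counting interval 0.01 to 0.25), a fold of 1.10 (1.01 to 1.20) in fragments per depth, which became 1.03 (0.947 to 1.12) when scaled to reference genes. *Stat5a* (ENSRNOG00000019496), named first for its role in the mammary gland under prolactin, was listed at 2.22 FPKM (1.89 to 2.60) and 2.29 FPKM (1.90 to 2.73), on 155 and about 125 fragments, the latter not whole within 0.1. Its log2 ratio was 0.03 (counting interval -0.21 to 0.27). *Stat5b* thus stood at 10.9 times the FPKM of *Stat5a* before puberty and 11.6 times at puberty. Both genes are close copies of each other, so fragments from stretches they share can have been split between them, and the ratio of their levels is uncertain to that extent.

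*Cish* (ENSRNOG00000029543), which encodes an SH2 protein that blocks STAT5 docking at the receptors, was the lowest of the 7 genes and the one with the largest ratio. It was listed at 0.814 FPKM (0.536 to 1.18) before puberty and 0.423 FPKM (0.211 to 0.757) at puberty, on 27 and 11 fragments. In fragments per depth the fold was 0.522 (0.234 to 1.09), and on the FPKM + 1 scale, which draws low values towards 0, the log2 ratio was -0.35 (counting interval -0.68 to 0.05). The difference lies within counting error. *Socs2* (ENSRNOG00000008965), the inhibitor best known for restraining growth hormone signalling, went the other way, from 3.71 FPKM (2.76 to 4.87) to 4.25 FPKM (3.11 to 5.67), on 51 and 46 fragments. Its log2 ratio was 0.16 (counting interval -0.33 to 0.64). *Socs2* was listed at 4.55 times the FPKM of *Cish* before puberty and 10.04 times at puberty.

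**Figure D3:**
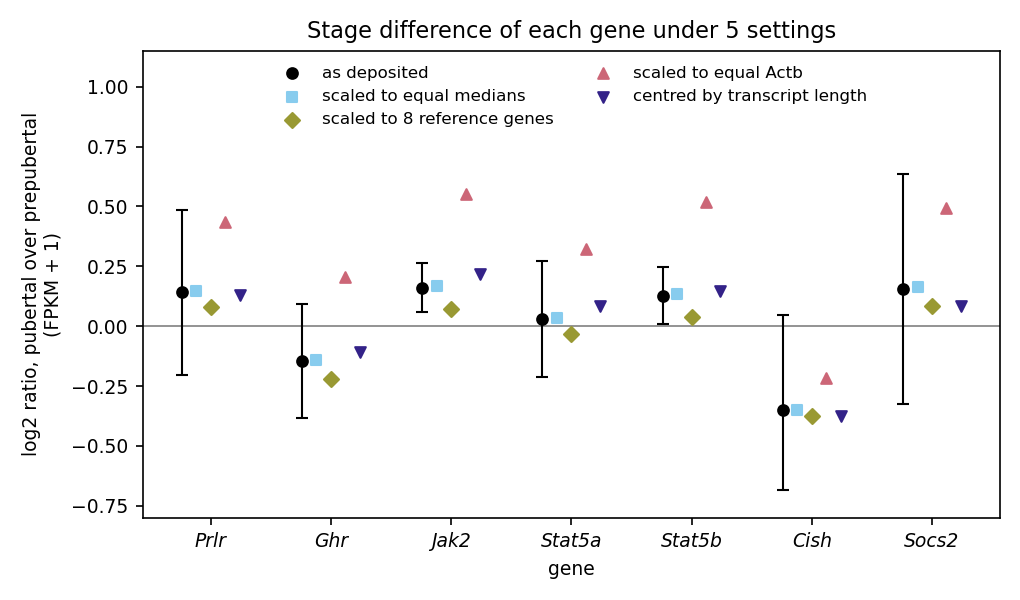
Log2 ratio (pubertal over prepubertal, FPKM + 1) of each gene as deposited, after 3 scalings of the pubertal library, and centred on genes of similar transcript length. Bars on the black points are 95% counting intervals. Scaling to equal *Actb* lifted all 7 genes, and *Cish* alone stayed below 0.

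The library scaling shifts all genes together. To bring the medians of both stages together, pubertal values had to be multiplied by 1.004, to match 8 reference genes by 0.939, and to match *Actb*, to which the methods scaled the quantitative PCR, by 1.32. The last adds 0.41 to the log2 ratio of well expressed genes and less to genes near 1 FPKM, so the values of *Jak2* and *Stat5b* with equal *Actb*, 0.55 and 0.52, lie 0.15 and 0.11 above that shift. Scaled to the reference genes, the same values were 0.07 and 0.04. The counting intervals above are for the libraries as deposited, and with equal *Actb* those of the fold in fragments per depth lay above 1 for all of the 7 genes but *Cish*, down to 1.004 for the lower bound of *Socs2*.

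The other genes of the pathway were taken from lists by role, with 70 of 72 found in the tables. Of these 70, 31 were higher and 38 lower at puberty (44.3% higher), with a median log2 ratio of -0.05, and *Epo* was listed at 0 in both stages. At least 2-fold differences in FPKM + 1 were seen for 2 genes, the ligands *Prl* and *Gh1*. The directions below are those of FPKM as deposited, and the medians of the receptor, JAK, SOCS, inhibitor, adaptor and target lists turn positive when the libraries are scaled to equal *Actb*. Of the 70 genes, 59 were higher with equal *Actb* and 24 when scaled to the reference genes. Ratios also varied with transcript length, from a median of 0.05 for genes of up to 736 nt to -0.10 for those above 4344 nt. The lists were not centred for this.

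Both hormones were listed higher at puberty. *Prl*, prolactin, was listed at 0 before puberty and at 3.40 FPKM, or 41 fragments, at puberty. *Gh1*, growth hormone, went from 0.872 to 4.09 FPKM, from 10 to 37 fragments, a fold of 4.74 (2.31 to 10.7) in fragments per depth. These are abundant transcripts of the pituitary, which lies below the hypothalamus. Of the 5 other pituitary markers, 3 were higher and 2 lower at puberty (4 and 1 with equal *Actb*), with a sum of 30.9 FPKM before and 37.0 FPKM at puberty, and *Fshb* was at 0 before puberty. *Tshb* and *Cga*, which the pars tuberalis at the base of the hypothalamus also makes, were listed at 4.68 and 24.6 FPKM before and 5.28 and 29.97 FPKM at puberty, and *Pou1f1*, the factor of prolactin and growth hormone cells, at 0.155 and 0.0565 FPKM. The part of pituitary tissue in the hormone values was not tested.

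**Figure D4:**
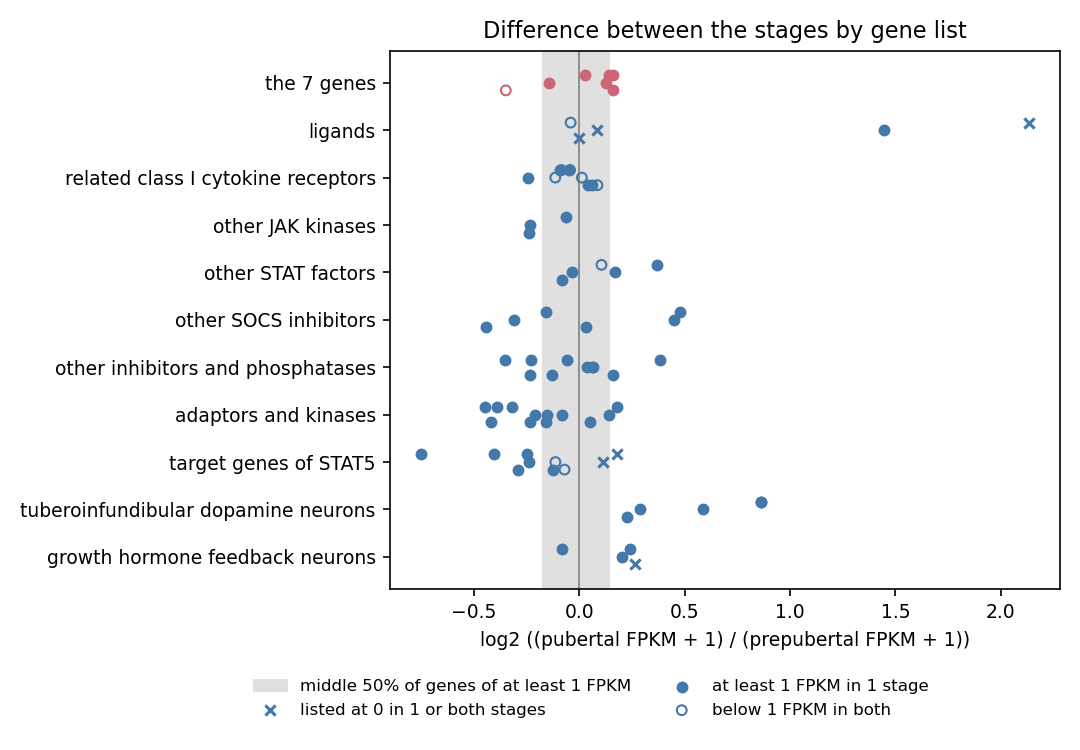
Log2 ratio (pubertal over prepubertal, FPKM + 1) of each gene by list, with the 7 genes in red. Filled points have at least 1 FPKM in 1 stage, open points less, crosses are genes listed at 0, whose position depends on the pseudocount, and the grey band spans the quartiles of all genes of at least 1 FPKM. *Gh1* and *Prl* lie far to the right, and the 5 genes of the dopamine neurons lie right of the band.

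Among related class I cytokine receptors, 4 of 10 were higher and 6 lower, with a median of -0.05. *Il6st*, the shared receptor chain of the interleukin 6 family, was the highest at 37.9 and 39.6 FPKM, and *Cntfr*, the receptor of ciliary neurotrophic factor, had the largest ratio, from 6.54 to 5.36 FPKM (-0.24). All 3 other JAK kinases were lower (1 of 3 with equal *Actb*), where *Jak2* was higher. *Jak1* went from 52.3 to 49.9 FPKM (-0.07) and *Tyk2* from 4.25 to 3.46 FPKM (-0.24). The folds in fragments per depth of *Jak1*, 0.956 (0.914 to 1.001), and *Jak3*, 0.713 (0.482 to 1.04), lay within counting error. That of *Tyk2* was 0.813 (0.689 to 0.958). Of the other STAT genes, 3 of 5 were higher, with a median of 0.10. This median is the ratio of *Stat4*, on 2 and 5 fragments, a fold of 3.20 (0.524 to 33.6). *Stat6*, also listed higher, had a fold of 1.18 (0.905 to 1.53), so both lay within counting error.

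The other SOCS inhibitors were split, 3 higher and 3 lower, with a median of -0.06. *Socs5* was the highest, at 34.0 and 30.3 FPKM (-0.16). *Socs1* had the largest ratio, from 0.630 to 1.27 FPKM (0.48), on 5 and 8 fragments, a fold of 2.05 with a counting interval of 0.591 to 7.96, so no difference was detectable. The 3 lower genes had counting intervals below 1 as deposited, with folds in fragments per depth of 0.701 (0.568 to 0.862) for *Socs4*, 0.893 (0.843 to 0.947) for *Socs5* and 0.795 (0.680 to 0.929) for *Socs6*. With equal *Actb*, 5 of the 6 genes were higher, and 2 when scaled to the reference genes. Of the other inhibitors and phosphatases, 5 of 10 were higher (9 with equal *Actb*, 2 when scaled to the reference genes), and *Ptpn11*, the phosphatase SHP-2, led in level and in ratio, from 94.5 to 123.5 FPKM (0.38). Of the adaptors and kinases that couple the receptors to other pathways, 3 of 12 were higher and 9 lower, with a median of -0.18. The kinase *Fyn* was the highest before puberty and had the largest ratio, from 67.7 to 49.3 FPKM (-0.45). In fragments per depth its fold was 0.792 (0.753 to 0.833), against 0.729 from the FPKM summed over its 3 transcripts. On that measure *Fyn* did not have the largest change of the list. *Grb2*, an adaptor of the Ras pathway, was the highest at puberty, at 63.4 and 65.7 FPKM (0.05).

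Of 10 genes known as STAT5 targets in other tissues, 2 were higher and 8 lower at puberty. The higher ones, *Igfals* and *Osm*, were listed at 0 before puberty and rest on 2 and 1 fragments at puberty. Among the lower ones, *Igf1*, *Bcl6*, *Myc* and *Onecut1* had folds in fragments per depth whose counting intervals included 1. The median log2 ratio over all 10 was -0.18. *Pim1*, a survival kinase, had the largest ratio, from 3.31 to 1.56 FPKM (-0.75), on 65 and 24 fragments, a fold of 0.473 (0.283 to 0.766) in fragments per depth. *Bcl2l1*, which protects cells from apoptosis, was the highest of the list and went from 33.7 to 28.2 FPKM (-0.25). These genes answer to many other signals. Of the STAT5 targets among the 7 genes themselves, *Cish* was listed lower and *Socs2* higher, both within counting error as deposited.

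The neurons on which both hormones feed back were described by lists of genes tied to them, which are not particular to these neurons. All 5 genes of the tuberoinfundibular dopamine neurons were higher at puberty, under each of the 3 scalings too, with a median of 0.59. *Th*, the rate-limiting enzyme of dopamine synthesis, went from 16.4 to 30.7 FPKM (0.86), a fold of 1.88 (1.67 to 2.103) in fragments per depth, and *Ddc*, the next enzyme, from 30.6 to 46.5 FPKM (0.59). These genes are shared with other monoamine neurons of the brain. Hypothalamic peptide genes were also mostly higher at puberty, 7 of 8 with 1 lower and a median of 0.34. The part of dissection in the dopamine neuron values was not tested. Of the genes of growth hormone feedback, 3 of 4 were listed higher. For 1 of them, the receptor gene *Ghrhr*, the value was 0 before puberty and rests on about 4.5 fragments at puberty, not a whole number. *Sst*, somatostatin, went from 107.9 to 124.4 FPKM (0.20) and *Ghrh*, the releasing hormone, from 2.20 to 2.77 FPKM (0.24), the latter on 16 fragments in each library, with a fold of 1.28 (0.600 to 2.74) that lies within counting error.

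The labelled tissue carried its defining markers, as all 8 hypothalamic peptide genes were above 0 in both libraries, from 2.20 FPKM for *Ghrh* to 1675 FPKM for *Pmch* before puberty. The pieces of tissue differed between the stages in other markers. The 7 hypothalamic genes higher at puberty (1 was lower) and the 6 of 6 red blood cell genes found that were higher at puberty stood beside 5 of 5 thalamic markers that were lower (3 of 5 with equal *Actb*), whose sum went from 176.4 to 137.9 FPKM. Hypothalamic peptide genes summed to 2659 FPKM before and 4057 FPKM at puberty, and red blood cell genes to 6839 and 13086 FPKM. Single genes made up much of both sums, as *Pmch* went from 1675 to 2723 FPKM and the globin gene *Hbb* from 2130 to 5898 FPKM. Of the remaining lists, microglial genes were higher in 6 of 6 cases, astrocyte and oligodendrocyte genes in 3 of 6 each, endothelial genes in 2 of 6, and tanycyte and ependymal genes in 3 of the 4 found. With equal *Actb* these counts were 6 of 6 for microglia, 4 of 6 for astrocytes, 6 of 6 for oligodendrocytes, 5 of 6 for endothelium and 3 of 4 for tanycytes and ependyma. Scaled to the reference genes they were 6 of 6, 2 of 6, 2 of 6, 2 of 6 and 1 of 4 in the same order. With 1 sample per stage, a difference in dissection, in cell numbers or in RNA per cell cannot be told apart from a change of the 7 genes or of the other listed genes.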

How the data were processed

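Hypothalamic RNA of female rats was depleted of ribosomal RNA, made into strand-specific libraries and sequenced as paired ends. The authors aligned reads with TopHat, assembled them with Scripture and Cufflinks 2.1.1 (build Rnor 5.0 in the submitters' processing notes, whereas the methods link an annotation of a later rat build, so the build of the transcript models is uncertain), and deposited FPKM values estimated per transcript with Cuffdiff 2.1.1, already scaled for depth and length. The comparison table gave gene names and lengths (other values, in nt) and also holds the authors' log2 ratios, p-values and q-values, which were not used. FPKM of 13 transcripts differed between the deposited tables, none of them of the 7 genes, and the mRNA table was used.

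FPKM were summed per gene name, and the log2 ratio was taken with a pseudocount of 1. Fragments were recovered by fitting FPKM as a whole number times a step over the length less an offset (256 and 251 nt), on genes with 1 transcript of 1000 to 6000 nt. Of 2689 and 2903 such transcripts with up to 50 fragments, 94.9% and 95.3% came out whole within 0.1. Shorter transcripts were not in the fit, and numbers above 300 are rounded estimates. On simulated data with 19198 transcripts, 15594 of 15594 fragment numbers from 1 to 300 were recovered. The simulation used the same relation as the fit and only genes with 1 transcript. It therefore checks the fitting step alone and does not cover genes with more transcripts, such as *Prlr* and *Ghr*. The tools were Python 3.11.15, scipy 1.17.1, numpy 2.4.6, matplotlib 3.10.9 and pandas 2.3.3.

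The genes and lists were chosen with earlier results of these data known. Named were the 7 genes and, of each pathway list, the gene with the highest FPKM summed over both stages and that with the largest ratio among those of at least 1 FPKM in 1 stage. The value of 1 listed gene is not reported here. *Epo*, *Igfals*, *Osm*, *Socs4*, *Socs6*, *Ghrhr*, *Jak3*, *Stat4*, *Stat6*, *Igf1*, *Bcl6*, *Myc* and *Onecut1*, and single markers, were named after their values were seen. With 2 libraries a pattern is 1 ratio, so likeness of pattern to other genes was not computed. Protein sequences and lncRNAs were not used here. Alternatives were a pseudocount of 0.1, filters, 1 transcript per gene, 3 scalings, the other table, centring by length, and, added after the data were seen, fragments per depth.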

Additional observations from a re-analysis of the deposited data

How the results depend on the processing

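*Prlr* and *Socs2* kept their sign and stayed within their counting interval under all 10 alternatives, with log2 ratios from 0.01 to 0.43 and from 0.08 to 0.49. *Ghr* turned to 0.089 with its transcript of highest FPKM, 0.20 with equal *Actb* and 0.0095 in fragments per depth, and *Stat5a* to -0.034 when scaled to the reference genes, where *Jak2* was at 0.074, *Stat5b* at 0.040 and 24 of the 70 other pathway genes were higher. With equal *Actb*, *Jak2* was at 0.55, *Stat5a* at 0.32 and *Stat5b* at 0.52, the median of the 7 genes at 0.43, and 59 of the 70 other pathway genes were higher, against 31 as deposited. *Cish* was at -0.80 with a pseudocount of 0.1 and at -0.94 in fragments per depth. It had no value among transcripts of at least 1 FPKM. The number of the 7 genes changed at least 2-fold was 0 under each of these 10 alternatives, but in fragments per depth also scaled to the reference genes, a combination added after the data were seen, the fold of *Cish* was 0.490 (0.219 to 1.02). Medians of lists turned positive with equal *Actb* for related receptors (0.16), JAK kinases (0.086), SOCS inhibitors (0.32), other inhibitors (0.36), adaptors (0.21) and STAT5 targets (0.11). The changes with equal *Actb* follow from its common factor. No replicate could be left out, and no paired analysis was possible because each stage has 1 sample. Depth limited the genes with the fewest fragments most, as the counting interval of the fold in fragments per depth ran from 0.861 to 1.74 for *Prlr*, from 0.758 to 1.76 for *Socs2* and from 0.234 to 1.09 for *Cish*.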
